A study of Mus musculus with 151 samples.

Results

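The ovaries of naturally conceived (Natural) female mice were compared between 12 and 39 weeks of age by bulk RNA-seq. The members were all ovary libraries of the Natural group at these ages, 4 at 12 weeks and 5 at 39 weeks, 9 of the 19 adult ovary libraries and of 151 samples in the series. They were taken by the group and age in their labels, and the genes were joined by name over 35976 names, of which 17710 passed the filter on low counts and were tested.

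The study set offspring conceived by in vitro fertilization (IVF) against Natural offspring, and the Natural ovary across age serves there as the reference course of ovarian aging. The mothers were CF-1 females and the fathers B6/SJL males, so the animals were of a mixed background, and the labels name no engineered allele. Natural mating gave the Natural pups, which were delivered by cesarean section and fostered to CF-1 dams. RNA came from a piece of 1 snap-frozen ovary per female, and no treatment is named. The study's methods give different litters, while allowing littermates in the adult cohorts. The study's methods give proestrus for adult females used for serum hormones, without saying whether these females were among them, and the hour of collection is not given in the sources used here. The tissue label of the ovary called 39-week replicate 5 says 40 weeks.

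The adult ovary holds oocytes at rest in primordial follicles, growing follicles in which granulosa and theca cells surround the oocyte, and corpora lutea, which form after ovulation and make progesterone from cholesterol. The stock of follicles shrinks with age, and immune cells and stroma come to take more of the organ. In bulk tissue, fewer cells of a type and less RNA per cell cannot be told apart. The ovary and the oviduct lie against each other inside the bursa, so a dissected ovary can carry oviduct epithelium, whose secretory cells make Ovgp1, an oviduct glycoprotein, and whose ciliated cells need Foxj1, the regulator of motile cilia.

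The libraries held 20366410 to 29904780 counts at 12 weeks and 18079970 to 38526898 counts at 39 weeks. Counts of the 13 protein-coding genes of mitochondrial DNA made up 2.03% to 2.57% of the total at 12 weeks and 2.49% to 5.34% at 39 weeks. Of these genes ND3, ND4L, COX2, COX3, ATP6 and ATP8 had at most 6 counts in any Natural ovary. The share therefore comes almost wholly from the 7 others. Levels below are CPM (counts divided by the library total and scaled up to a common total) after scaling by TMM, edgeR's trimmed mean of M values. Fold changes are given as log2 with the SE, and are positive where the 39-week ovaries were higher. A gene was called at an adjusted p under 0.05 from edgeR's quasi-likelihood test with Benjamini-Hochberg adjustment over all genes tested.

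The ages differed in oviduct transcripts. Ovgp1 stood at 5087, 2578, 6013 and 2608 CPM at 12 weeks and at 114, 2.09, 1.59, 8.42 and 2.91 CPM at 39 weeks (log2 fold change -7.31 ± 1.41, adjusted p = 0.00391). All 4 ovaries of 12 weeks lay far above the highest ovary of 39 weeks, and 39-week replicate 1 lay well above the other 4 of its age. The ciliary regulator Foxj1 stood at 216, 153, 438 and 129 CPM at 12 weeks and at 30.4, 3.06, 0.306, 2.9 and 1.76 CPM at 39 weeks (log2 fold change -4.97 ± 1.01, adjusted p = 0.00509). All 9 tested oviduct secretory genes and all 24 tested genes of motile cilia fell, with median log2 fold changes of -4.38 and -3.67. Summed over its list, the secretory level was 2778 to 6553 CPM at 12 weeks and 15.25 to 137.8 CPM at 39 weeks. The cilia level was 566.1 to 1868 CPM at 12 weeks and 38.41 to 154.6 CPM at 39 weeks. No member of either list was at 0 in a 12-week ovary. At 39 weeks 7 of the 33 were at 0 in at least 1 ovary, among them Pax8, a regulator of Müllerian duct epithelium, in replicate 3. Oviduct RNA, age and the table in which each age was deposited therefore cannot be told apart within the Natural group.

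The IVF ovaries of the same series, of the same ages and count tables, were used to mark the genes concerned, since 1 ovary at each age stood against the others of its age in oviduct level. At 12 weeks their Ovgp1 levels were 2307, 2454, 2.29, 574 and 274.5 CPM, and at 39 weeks they were 6791, 0.891, 13.1, 17.1 and 1.22 CPM. A gene is called oviduct-linked below where IVF 39-week replicate 1, the ovary with 6791 CPM of Ovgp1, was at least 2-fold above the highest of the other 4 IVF ovaries of 39 weeks. IVF 12-week replicate 3, with 2.29 CPM of Ovgp1, is called the oviduct-poor 12-week ovary; it held 9731457 counts, fewer than any Natural ovary. Both are single libraries, and the rule uses no Natural ovary but does use the IVF ovaries of 39 weeks.

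**Figure D1:**
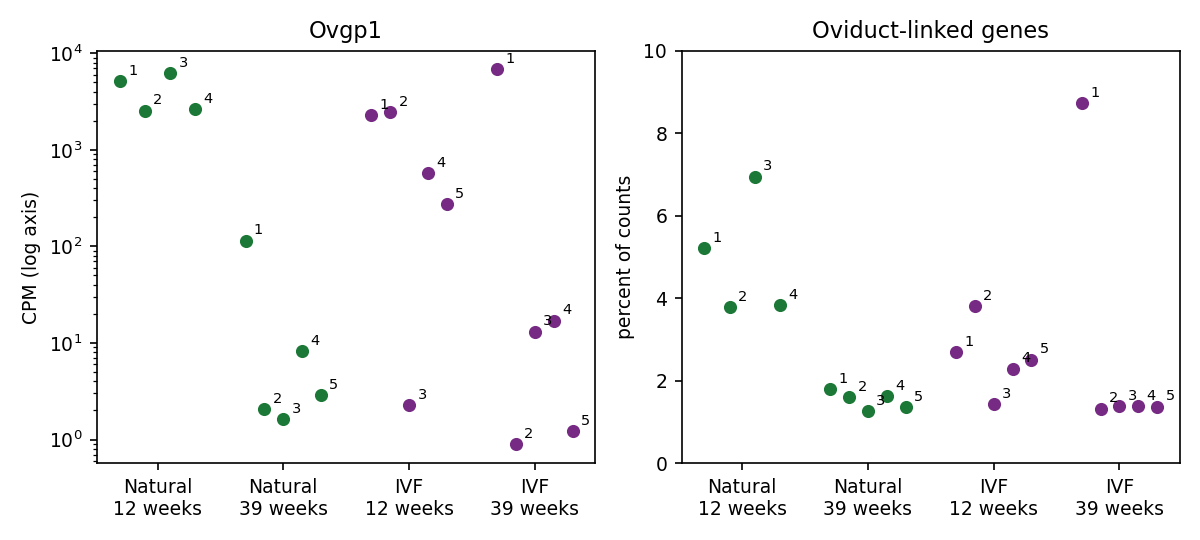
CPM of Ovgp1 on a log axis (left) and the percent of all counts held by oviduct-linked genes (right) in each adult ovary, 1 numbered point per library, with CPM scaled over all 19. The Natural ovaries lie at 2554 to 6204 CPM of Ovgp1 at 12 weeks and at 1.63 to 114.5 CPM at 39 weeks, while in the IVF group 1 ovary of 12 weeks is low and 1 ovary of 39 weeks is high.

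Between 12 and 39 weeks 2508 genes rose (14.2% of those tested) and 2482 fell (14%), 28.2% in all. The falls were the larger changes: 1547 genes fell and 570 rose by at least 2-fold, and 629 fell and 16 rose by at least 8-fold. The median log2 fold change was 0.0204 over all genes, 0.626 over the genes that rose and -1.4 over those that fell. In 25.6% of the genes tested the ovaries of the ages did not overlap, 12.4% with every 39-week ovary higher and 13.2% with every 39-week ovary lower. With 1 ovary left out at a time the genes that rose numbered 1645 to 2392 and those that fell 1969 to 2399, the lowest of both without 12-week replicate 1.

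The oviduct-linked genes carried most of the large falls. Of 1807 such genes tested, 1346 fell (74.5%) and 4 rose, with a median log2 fold change of -1.92. Of the 15903 other genes, 1136 fell (7.14%) and 2504 rose (15.7%), with a median of 0.0713. Oviduct-linked genes were 54.2% of all genes that fell and 611 of the 629 that fell by at least 8-fold. The linked genes held 3.79% to 6.95% of all counts at 12 weeks and 1.26% to 1.8% at 39 weeks. Removing them and refitting left 1745 genes higher and 1460 lower, an alternative chosen after seeing the data.

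**Figure D2:**
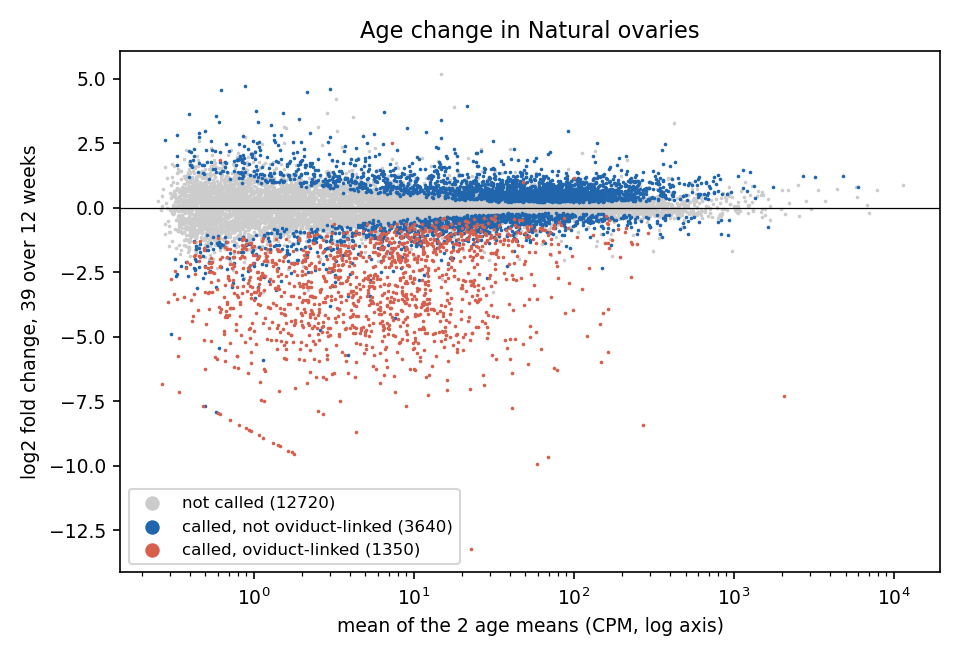
Log2 fold change from 12 to 39 weeks against the mean CPM of the ages, on a log axis, for the 17710 genes tested in the Natural ovaries, with called genes coloured by whether they are oviduct-linked. Of the 629 falls of at least 8-fold, 611 are oviduct-linked, while the called rises are almost all of other genes (2504 of 2508).

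The 10 largest falls among genes whose ovaries did not overlap were all oviduct-linked. Dcpp3, Dcpp2 and Dcpp1, near-identical copies whose reads the counting could split among them, belong to them. Dcpp3 stood at 80.4, 46.3, 42.7 and 13.7 CPM at 12 weeks and at 0, 0, 0, 0 and 0 CPM at 39 weeks, at least 351-fold lower at 39 weeks when 3 counts per library are taken as the floor. BC048546 stood at 763, 356, 697 and 339 CPM at 12 weeks and at 8.75, 0.0775, 0, 0.0674 and 0 CPM at 39 weeks (log2 fold change -8.41 ± 1.36, adjusted p = 0.00162). Klk1b21, Wfdc18, Wfdc15b, Gm35761, Gpx2 and Lrrc26 were the others. In the 4 IVF ovaries of 39 weeks with little Ovgp1 all 10 were at 0.598 CPM or less, apart from BC048546 at up to 1.84 CPM. Gm35761, Gpx2 and Lrrc26 were at least 67-fold, 41.6-fold and 38.6-fold lower by the same floor.

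Surface epithelium markers shared this pattern, with 6 of 11 lower (54.5%, against 14% of all genes) and none higher. The median was -2.36, and all 6 were oviduct-linked. Krt18, a keratin of simple epithelia, stood at 319.6, 293, 388 and 222 CPM at 12 weeks and at 29.4, 34.9, 16.2, 7.51 and 13.5 CPM at 39 weeks (log2 fold change -3.92 ± 0.41, adjusted p = 0.00023). The E-cadherin gene Cdh1 stood at 209, 125, 299 and 111 CPM at 12 weeks and at 17.7, 15.8, 9.06, 8.02 and 8.48 CPM at 39 weeks (log2 fold change -3.98 ± 0.36, adjusted p = 0.00012). Keratins and E-cadherin are made by ovarian surface epithelium and by oviduct epithelium alike. The markers closest to mesothelium did not pass the test, with log2 fold changes of -1.65 for Msln, -0.42 for Upk3b, -0.73 for Upk1b, 0.40 for Lrrn4 and 0.93 for Muc16.

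**Figure D3:**
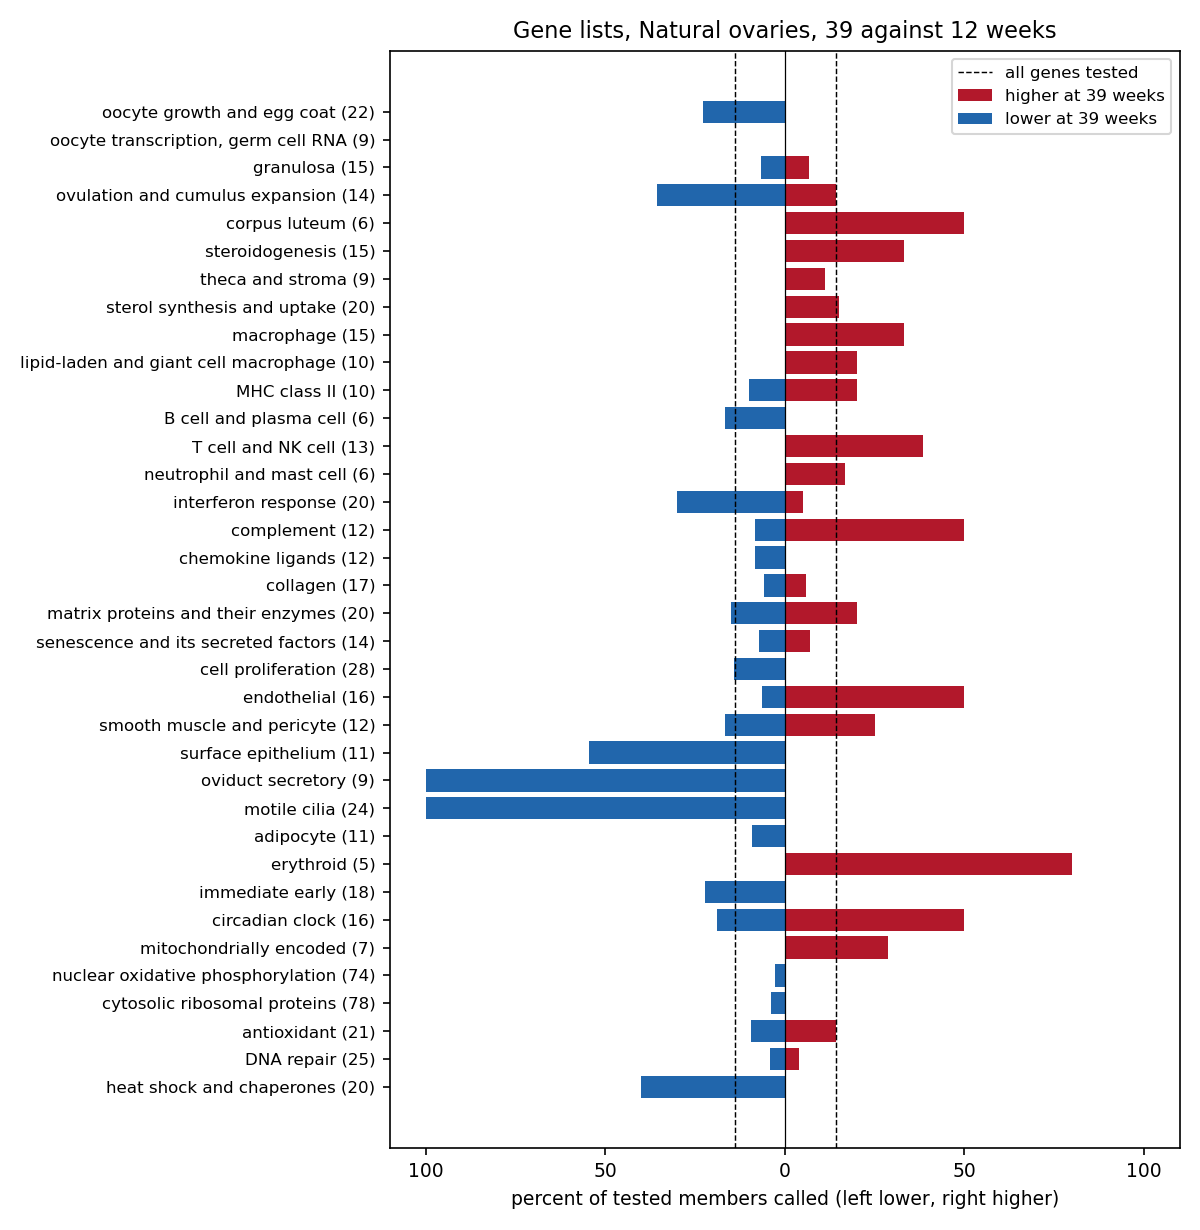
Percent of the tested members of each gene list called lower (bars to the left) or higher (bars to the right) at 39 weeks in the Natural ovaries, with the number tested in brackets and dashed lines at the percent over all genes (14% lower, 14.2% higher). Oviduct secretory and motile cilia lists reach 100% lower, and the longest bars to the right are those of the erythroid (80%), corpus luteum, complement, endothelial and circadian clock lists (50% each).

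Most oocyte genes had negative changes, and a minority of them passed the test. Of 22 genes of oocyte growth and egg coat, 5 fell (22.7%, against 14% of all genes), none rose, and 21 had a negative log2 fold change, with a median of -0.772. Zp3, a glycoprotein of the egg coat, stood at 15, 31.2, 12.7 and 32.1 CPM at 12 weeks and at 7.42, 17.4, 7.22, 13.1 and 8.03 CPM at 39 weeks (log2 fold change -1.09 ± 0.36, adjusted p = 0.0445). The ages overlapped, since 12-week replicates 1 and 3 lay below the highest 39-week ovary. Dppa3, a maternal factor of the early embryo, changed by -1.12 ± 0.33 (adjusted p = 0.0303), Omt2a, an oocyte transcript, by -0.82 ± 0.25 (adjusted p = 0.0345), and H1foo, the linker histone of the oocyte, by -0.69 ± 0.23 (adjusted p = 0.0451). Kit, a receptor carried by oocytes and theca cells, stood at 42, 33.5, 70.6 and 62 CPM at 12 weeks and at 15.8, 34.8, 27.5, 22.3 and 25.5 CPM at 39 weeks (log2 fold change -1.05 ± 0.25, adjusted p = 0.0123).

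Other oocyte genes did not pass the test. Gdf9, the oocyte growth factor that acts on granulosa cells, stood at 31.2, 64.7, 34.1 and 57.9 CPM at 12 weeks and at 22.2, 38.5, 38.2, 34.2 and 25.5 CPM at 39 weeks (log2 fold change -0.57 ± 0.25, adjusted p = 0.118). Bmp15, its close relative, stood at 13.4, 21.4, 15.6 and 24.2 CPM at 12 weeks and at 11.3, 23.9, 17.4, 20.9 and 12 CPM at 39 weeks (log2 fold change -0.13 ± 0.26, adjusted p = 0.749). Of 9 oocyte transcription factors and germ cell RNA-binding proteins none passed, with a median of -0.245; Nobox, a factor of early follicles, changed by -0.54 ± 0.37 (adjusted p = 0.305) and Ddx4, a germ cell RNA helicase, by -0.25 ± 0.42 (adjusted p = 0.689). Figla and Tbpl2 had too few counts to test.

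The oocyte list depended on single ovaries. With 1 ovary left out at a time the number that fell ran from 1, without 12-week replicate 2, 12-week replicate 4, 39-week replicate 1 or 39-week replicate 5, to 8, without 12-week replicate 1 or 3. With 39-week replicates 3 and 5 both left out it was 0. The oviduct-poor 12-week ovary lay above all 5 Natural ovaries of 39 weeks for 22 of 22 members, against 24.4% of all genes tested. It held 46 CPM of Zp3 and 95.9 CPM of Gdf9, above every Natural ovary of 12 weeks. Its summed level of the list was 865.4 CPM, against 308.8 to 605.7 CPM in those ovaries. The ovary was thus high for the list even at 12 weeks.

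Cell cycle genes also had mostly negative changes. Of 28 proliferation genes 4 fell (14.3%, close to the 14% of all genes), none rose, and 26 had a negative log2 fold change, with a median of -0.428. Ube2c, which directs cyclin B to degradation in mitosis, stood at 45.1, 34.1, 32.8 and 36.4 CPM at 12 weeks and at 9.31, 23.9, 17.7, 28.3 and 15.3 CPM at 39 weeks (log2 fold change -0.97 ± 0.27, adjusted p = 0.0225). Every 12-week ovary lay above every 39-week ovary. Birc5, a member of the chromosomal passenger complex, changed by -0.77 ± 0.26 (adjusted p = 0.0465), Ccnb2, a mitotic cyclin, by -0.70 ± 0.22 (adjusted p = 0.0395) and E2f1, a regulator of S phase entry, by -0.63 ± 0.21 (adjusted p = 0.043). All 28 members were higher in the oviduct-poor 12-week ovary than in any Natural ovary of 39 weeks, with 82.8 CPM of Ube2c. Its summed level of the list, 2255 CPM, was also above the 916.1 to 1228 CPM of the Natural 12-week ovaries. With 1 ovary left out at a time the number that fell was 0 (without 12-week replicate 1 or 39-week replicate 5), 1 (without 12-week replicate 2 or 39-week replicate 3) or 2 to 5, and 10 without 39-week replicate 4.

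Of 15 granulosa genes 1 rose and 1 fell (6.67% each, against 14.2% and 14% of all genes), with a median of -0.068. The oviduct-poor 12-week ovary lay above all 5 Natural ovaries of 39 weeks for 11 of the 15, against 24.4% of all genes. Its summed level of the list, 7617 CPM, was also above the 2793 to 4390 CPM of the Natural 12-week ovaries. An oviduct score of 33 oviduct and cilia genes was then a covariate in the fit of all 19 ovaries. The median was -0.975 with it, with 2 lower and none higher. Kitl, the Kit ligand of granulosa cells, stood at 58.6, 59.2, 65.1 and 57.7 CPM at 12 weeks and at 86.2, 101, 83.9, 88.1 and 83.2 CPM at 39 weeks (log2 fold change 0.56 ± 0.081, adjusted p = 0.000955), with no overlap. Serpine2, a protease inhibitor, changed by -0.69 ± 0.22 (adjusted p = 0.0385), with its call lost in 6 of the 9 fits with 1 ovary left out. Foxl2, a transcription factor that maintains granulosa identity, stood at 191, 197, 203 and 197 CPM at 12 weeks and at 174, 221, 289, 238 and 246 CPM at 39 weeks (log2 fold change 0.24 ± 0.13, adjusted p = 0.187). Amh, made by granulosa cells of growing follicles, stood at 252, 185, 217 and 255 CPM at 12 weeks and at 60.6, 214, 77.9, 156 and 53.9 CPM at 39 weeks (log2 fold change -1.01 ± 0.38, adjusted p = 0.0726): all 39-week ovaries but replicate 2 lay below every 12-week ovary.

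Of 14 genes of ovulation and cumulus expansion, 5 fell (35.7%, against 14% of all genes) and 2 rose (14.3%, close to the 14.2% of all genes), with a median of -0.835, or -0.262 over the members not oviduct-linked. Pgr, the progesterone receptor, which granulosa cells switch on after the luteinizing hormone surge, stood at 10.2, 10.4, 20.6 and 38.2 CPM at 12 weeks and at 2.77, 3.02, 3.43, 3.06 and 3.86 CPM at 39 weeks (log2 fold change -2.62 ± 0.38, adjusted p = 0.000932). Tnfaip6, which binds the hyaluronan of the expanding cumulus, stood at 2.94, 2.56, 3.76 and 2.99 CPM at 12 weeks and at 1.05, 0.775, 0.367, 1.11 and 0.392 CPM at 39 weeks (log2 fold change -2.04 ± 0.36, adjusted p = 0.00264). For both genes every 12-week ovary lay above every 39-week ovary, and neither gene was oviduct-linked by the rule. The oviduct-poor 12-week ovary held 5.77 CPM of Pgr, below every Natural ovary of 12 weeks and above every Natural ovary of 39 weeks. IVF 39-week replicate 1 held 17 CPM of it, and the other IVF ovaries of that age up to 11.1 CPM. Ptgs2, a prostaglandin synthase (log2 fold change -4.57 ± 0.66, adjusted p = 0.000907), Areg, an epidermal growth factor receptor ligand at least 20.3-fold lower, and Edn2, an endothelin (log2 fold change -3.44 ± 0.91, adjusted p = 0.0181), were oviduct-linked. Edn2 stood at 13.5 CPM in 12-week replicate 1 and at 0.805 to 1.65 CPM in the other 3 ovaries of that age, and lost its call without replicate 1. The rises were in Runx2, a transcription factor of luteinizing granulosa cells (log2 fold change 1.18 ± 0.27, adjusted p = 0.00974), and Ptger2, a prostaglandin E receptor (log2 fold change 0.70 ± 0.19, adjusted p = 0.0223).

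Several genes of steroid synthesis rose by 39 weeks. Of 15 steroidogenesis genes 5 rose (33.3%, against 14.2% of all genes) and none fell, with a median of 0.584. Star, which brings cholesterol to the inner mitochondrial membrane, stood at 2302, 2888, 2289 and 3983 CPM at 12 weeks and at 7796, 3669, 8366, 4534 and 9354 CPM at 39 weeks (log2 fold change 1.23 ± 0.32, adjusted p = 0.0156). The ages overlapped by 1 ovary, since 39-week replicate 2 lay below 12-week replicate 4, and 39-week replicates 1, 3 and 5 lay highest. Hsd3b1, the enzyme that turns pregnenolone into progesterone, stood at 3327, 4775, 3774 and 5614 CPM at 12 weeks and at 8682, 7241, 7690.3, 5789 and 8117 CPM at 39 weeks (log2 fold change 0.78 ± 0.21, adjusted p = 0.0187), with no overlap. Hsd3b6, a second enzyme of that step with a sequence close to Hsd3b1, changed by 1.03 ± 0.20 (adjusted p = 0.00422), Fdxr, which passes electrons to mitochondrial P450 enzymes, by 0.53 ± 0.12 (adjusted p = 0.00955) and Nr5a1, a nuclear receptor that drives steroidogenic genes, by 0.74 ± 0.22 (adjusted p = 0.0297). Cyp11a1, the side-chain cleavage enzyme, did not pass (log2 fold change 0.69 ± 0.26, adjusted p = 0.0677).

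Of 6 corpus luteum genes 3 rose (50%, against 14.2% of all genes), none fell and the median was 1.03. Prlr, the prolactin receptor, stood at 425, 616, 559 and 937 CPM at 12 weeks and at 1656, 1029, 1693, 949 and 2099 CPM at 39 weeks (log2 fold change 1.23 ± 0.29, adjusted p = 0.011), with no overlap. Ptgfr, the receptor through which prostaglandin F2alpha ends luteal life, changed by 0.85 ± 0.26 (adjusted p = 0.0317) and Parm1 by 1.20 ± 0.34 (adjusted p = 0.0228). Among 20 genes of sterol synthesis and uptake, 3 rose (15%, close to the 14.2% of all genes), none fell and 19 had a positive log2 fold change, with a median of 0.6. These were Dhcr7, the last enzyme of cholesterol synthesis (log2 fold change 0.86 ± 0.28, adjusted p = 0.0431), Stard4, a cholesterol carrier (log2 fold change 0.95 ± 0.26, adjusted p = 0.0225), and Srebf2, the regulator of sterol genes (log2 fold change 0.49 ± 0.092, adjusted p = 0.00339). In theca and stroma Pdgfra, a growth factor receptor of stromal cells, stood at 153, 164, 138 and 117 CPM at 12 weeks and at 328, 409, 313, 412 and 274 CPM at 39 weeks (log2 fold change 1.28 ± 0.15, adjusted p = 0.000391), with no overlap, and was the 1 of 9 genes that passed. The theca hormone Insl3 (log2 fold change -1.59 ± 0.86, adjusted p = 0.197) and the androgen-forming enzyme Cyp17a1 (log2 fold change -1.85 ± 1.70, adjusted p = 0.451) varied more within an age than between ages.

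The luteal results rested in part on 39-week replicates 3 and 5, which stood apart from the other 39-week ovaries on the second principal component (10.4% of the variance, against 60.6% on the first, which separated the ages). The strongest genes at the 12-week end of the first component, Ovgp1, BC048546 and the Dcpp genes among them, were oviduct-linked. Hsd17b7, a steroid and sterol enzyme of the corpus luteum, was at 1502 and 2239 CPM in these replicates and at 35.8 to 43.9 CPM in the other 3, with 47.8 to 118 CPM at 12 weeks. Lhcgr, the luteinizing hormone receptor, was at 340.5 and 645 CPM in them and at 33 to 60 CPM in the others. Kcnj16, a potassium channel, was at 65.5 and 77.7 CPM in them and at 0.222 CPM or less in the others. The mitochondrial share was 5.34% and 4.27% in these replicates, but also 3.96% in replicate 1. The part of the cycle stage, which no label gives for these ovaries, was not tested.

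Without replicates 3 and 5 the number of corpus luteum genes that rose was 0, of steroidogenesis genes 2, with 1 lower, and of sterol genes 1, with 2 lower. Star was then at 0.88 on the log2 scale (adjusted p = 0.0766), Hsd3b1 at 0.71 (adjusted p = 0.066) and Prlr at 0.92 (adjusted p = 0.0577), of the same sign as with all ovaries. With 1 ovary left out at a time, the luteal count fell to 1 without 39-week replicate 5, and the steroidogenesis count to 2 without 12-week replicate 1 and 3 without 12-week replicate 3. The sterol count went from 1, without 12-week replicates 1, 2 or 4 or 39-week replicate 3, to 9, without 39-week replicate 4. Star was at 4558 CPM and Hsd3b1 at 5126 CPM in the oviduct-poor 12-week ovary. That ovary lay below all 5 Natural ovaries of 39 weeks for 4 of 15 steroidogenesis genes, against 27.4% of all genes. It lay above them for 1, against 24.4%.

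Promoters of called oocyte and steroid genes were read for a pair of motifs, AAGGTCA, the extended half-site of Nr5a1 and Nr5a2, and CACGTG, the E-box of the basic helix-loop-helix factors, both strands being searched over 250 bases before to 50 after the start. The sequences are from RefSeq (GRCm38.p6), which held 6 of the 10 genes called in these lists. Of the 6, only Zp3 held a motif, a CACGTG 181 bases before its start. Zp3 and Hsd3b1, the leading egg coat and steroid genes with an entry, are shown on the strand of the gene, 5′ to 3′, with the motif in capitals. Zp3 lies at chr5:135979855-135980154 on the plus strand and Hsd3b1 at chr3:98859745-98860044 on the minus strand.
Zp3: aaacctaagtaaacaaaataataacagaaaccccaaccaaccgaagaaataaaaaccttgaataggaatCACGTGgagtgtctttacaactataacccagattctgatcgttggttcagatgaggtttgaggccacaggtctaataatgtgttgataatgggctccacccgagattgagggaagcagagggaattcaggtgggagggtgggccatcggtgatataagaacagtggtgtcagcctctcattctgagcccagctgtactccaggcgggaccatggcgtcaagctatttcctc
Hsd3b1: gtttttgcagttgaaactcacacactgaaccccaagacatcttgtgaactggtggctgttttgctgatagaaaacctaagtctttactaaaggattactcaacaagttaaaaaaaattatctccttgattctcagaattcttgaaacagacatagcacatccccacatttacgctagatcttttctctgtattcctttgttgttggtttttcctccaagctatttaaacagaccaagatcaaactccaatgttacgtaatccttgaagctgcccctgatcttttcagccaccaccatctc
AAGGTCA was in none of the 10 steroidogenesis promoters in the table, in 4.66% of all 27025 promoters and in 3.65% of those of the genes tested. CACGTG was in 2 of 14 oocyte promoters (14.29%), in 7.24% of all promoters and in 9.49% of those of the genes tested. A match describes letters, not binding.

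Genes of the circadian clock changed in both directions. Of 16, 8 rose (50%, against 14.2% of all genes) and 3 fell (18.8%, against 14%). Dbp, a clock-controlled transcription factor, stood at 14, 17.5, 29.9 and 44.7 CPM at 12 weeks and at 102, 76.4, 141, 88.9 and 148 CPM at 39 weeks (log2 fold change 2.07 ± 0.35, adjusted p = 0.00199). Per3, of the repressor arm, stood at 14.3, 13.3, 27.8 and 21.9 CPM at 12 weeks and at 60.1, 67.4, 61.1, 59.7 and 103 CPM at 39 weeks (log2 fold change 1.86 ± 0.26, adjusted p = 0.000757). Hlf and Tef, relatives of Dbp, changed by 1.73 ± 0.27 (adjusted p = 0.00128) and 1.23 ± 0.18 (adjusted p = 0.00103). For Dbp, Per3, Hlf and Tef every 39-week ovary lay above every 12-week ovary.

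The nuclear receptors Nr1d1 and Nr1d2, which repress Arntl, also rose, by 1.34 ± 0.23 (adjusted p = 0.00242) and 1.37 ± 0.15 (adjusted p = 0.000277). The genes that fell were Npas2, Arntl and Cry1. Npas2, an activator of the positive arm, stood at 17.8, 13, 13.4 and 9.14 CPM at 12 weeks and at 6.21, 2.13, 2.08, 4.14 and 3.22 CPM at 39 weeks (log2 fold change -1.91 ± 0.34, adjusted p = 0.00248). Arntl, its partner, stood at 22.4, 20.8, 15.7 and 17.7 CPM at 12 weeks and at 13, 11.2, 9.61, 13 and 8.62 CPM at 39 weeks (log2 fold change -0.79 ± 0.17, adjusted p = 0.00598). Cry1, a repressor, changed by -0.71 ± 0.15 (adjusted p = 0.00578). None of the 3 overlapped between ages.

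The clock counts were 6 to 8 higher and 3 lower with 1 ovary left out at a time, and 6 and 3 without 39-week replicates 3 and 5. No clock gene was oviduct-linked. The oviduct-poor 12-week ovary lay below all Natural 39-week ovaries for 8 of 16 members, against 27.4% of all genes. It lay above them for 2, against 24.4%, Cry1 among these. It lay within their range for Dbp (113 CPM), Npas2 (2.98 CPM) and Arntl (10.3 CPM). In the IVF ovaries the change with age was 0.063 for Dbp and 0.31 for Arntl, and the median over the list was 0.211, against 0.375 in Natural. The hour at which each age was collected is not given in the sources used here, and its part in the result was not tested.

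The promoter of Tef, 1 of 5 clock promoters of 14 in the table (35.71%) with a CACGTG, is shown, as the clock proteins bind this motif in clock-controlled genes. It lies at chr15:81802423-81802722 on the plus strand, for the first of 2 start sites, and the motif, in capitals, begins 127 bases before the start. Among the clock genes that rose 2 of 8 held the motif and among those that fell 1 of 3, against 9.49% over the genes tested.
Tef: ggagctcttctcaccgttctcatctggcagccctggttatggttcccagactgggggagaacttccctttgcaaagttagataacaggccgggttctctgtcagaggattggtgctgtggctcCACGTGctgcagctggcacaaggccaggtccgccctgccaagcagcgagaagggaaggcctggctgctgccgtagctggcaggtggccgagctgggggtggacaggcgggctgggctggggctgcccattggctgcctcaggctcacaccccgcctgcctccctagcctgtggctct

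**Figure D4:**
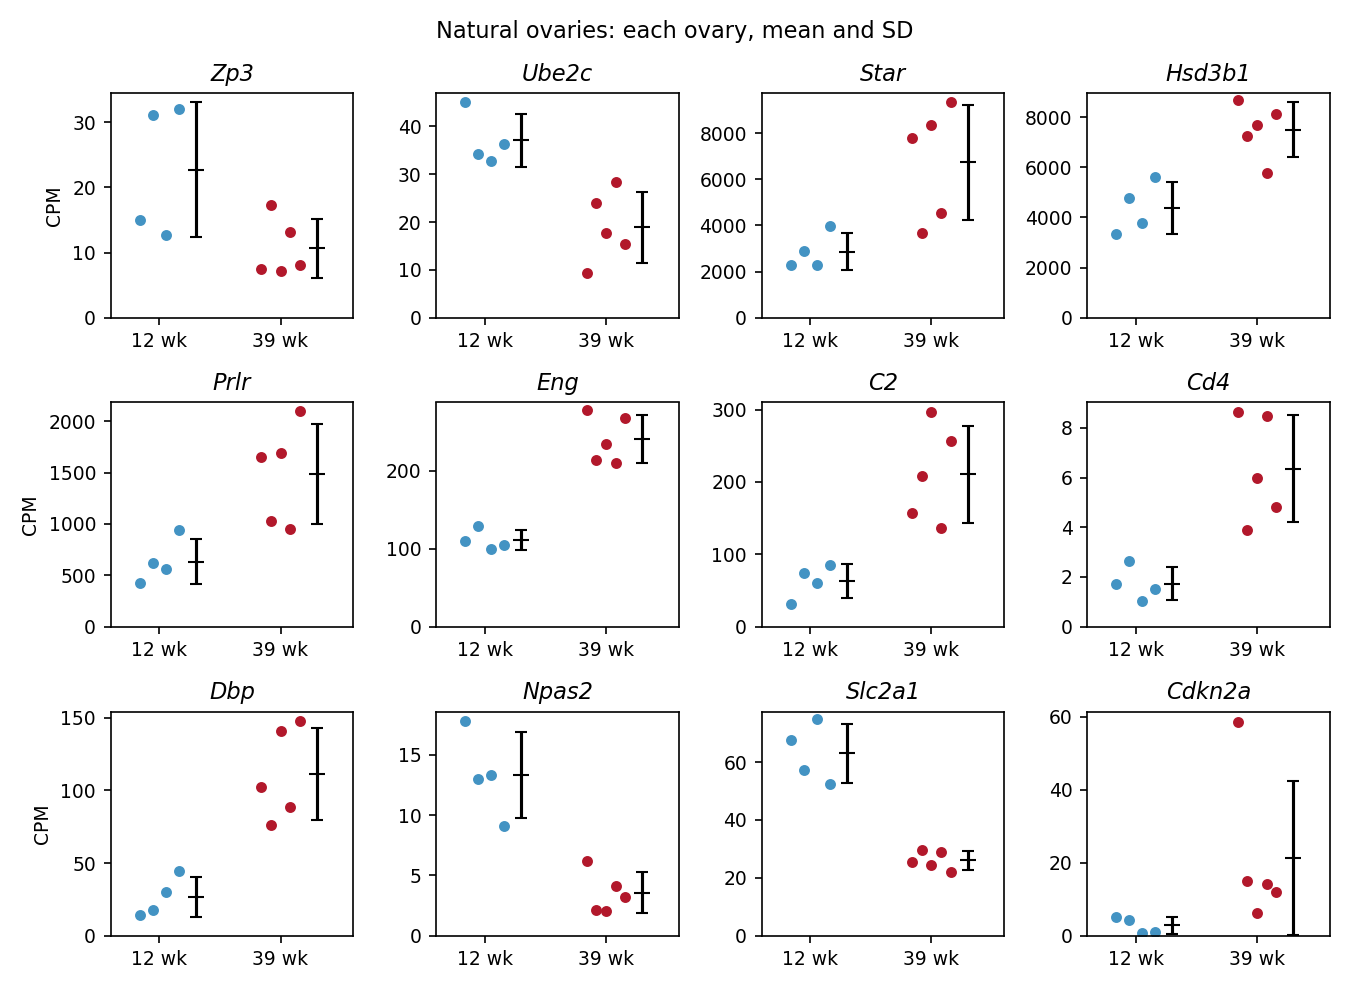
CPM of 12 genes in each Natural ovary, 1 point per library, with the mean and SD at each age (the lower SD bar of Cdkn2a is cut at 0). Eng, C2, Dbp and Cdkn2a lie higher at 39 weeks and Ube2c, Npas2 and Slc2a1 lower, each without overlap, while Zp3 and Star overlap between ages.

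Of 16 endothelial genes 8 rose (50%, against 14.2% of all genes) and 1 fell (6.25%, against 14%), with a median of 0.535. Eng, a TGF-beta co-receptor of vessels, stood at 110.2, 129, 99.7 and 105 CPM at 12 weeks and at 279, 214, 234, 210.0 and 268 CPM at 39 weeks (log2 fold change 1.12 ± 0.12, adjusted p = 0.000252). The VEGF receptor genes Flt1 and Kdr changed by 1.14 ± 0.18 (adjusted p = 0.00135) and 1.03 ± 0.18 (adjusted p = 0.00252), and the angiopoietin receptor gene Tek by 0.97 ± 0.17 (adjusted p = 0.00224). The 7 members that did not pass lay between 0.012 and 0.37, with the junction protein Pecam1 at 0.32. Sox17, the 1 that fell (log2 fold change -1.46 ± 0.22, adjusted p = 0.00101), was oviduct-linked. The number that rose was 7 to 9 with 1 ovary left out at a time and 7 without 39-week replicates 3 and 5. For 12 of 16 members the oviduct-poor 12-week ovary lay below all Natural 39-week ovaries, against 27.4% of all genes.

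In the smooth muscle and pericyte list 3 of 12 rose (25%, against 14.2% of all genes), 2 fell (16.7%, against 14%) and 8 had a negative log2 fold change, with a median of -0.428. The pericyte genes Pdgfrb (log2 fold change 1.10 ± 0.14, adjusted p = 0.000495) and Cspg4 (log2 fold change 0.86 ± 0.16, adjusted p = 0.00291) were higher in every 39-week ovary than in any 12-week ovary. Acta2, smooth muscle actin, stood at 1042, 1413, 1107 and 922 CPM at 12 weeks and at 803, 384, 448, 691 and 444 CPM at 39 weeks (log2 fold change -1.02 ± 0.23, adjusted p = 0.00908), also with no overlap. It was not oviduct-linked by the rule, although the oviduct wall holds smooth muscle. With the oviduct score as a covariate it lost its call, at -0.47 (adjusted p = 0.34), with a slope on the score of 0.142 (adjusted p = 0.0373). Most genes lost their calls in that fit, where 297 of the 2482 that fell kept theirs. In the Natural ovaries the score follows age, and the part of the oviduct was not tested. The number of falls in the list ran from 1 to 6, the highest without 39-week replicate 1.

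Rises were found in several lists of immune genes. Of 15 macrophage genes 5 rose (33.3%, against 14.2% of all genes), none fell and 14 had a positive log2 fold change, with a median of 0.445. Mpeg1, a pore-forming protein of macrophages, stood at 39.3, 56.1, 45.7 and 47.3 CPM at 12 weeks and at 82.2, 83.5, 92.9, 101 and 89.1 CPM at 39 weeks (log2 fold change 0.93 ± 0.11, adjusted p = 0.000391). Csf1r, the receptor that macrophages need to survive, changed by 0.68 ± 0.18 (adjusted p = 0.0167), and Adgre1, Cd68 and Cd163 by 0.68, 0.51 and 1.22. Of 10 genes of lipid-laden and giant cell macrophages, 2 rose (20%, against 14.2% of all genes). They were Lgals3, a galectin (log2 fold change 1.21 ± 0.30, adjusted p = 0.0139), and Itgax, an integrin (log2 fold change 0.72 ± 0.23, adjusted p = 0.0394). The call of Itgax was lost in 7 of the 9 fits with 1 ovary left out. The macrophage count was 3 without 12-week replicates 1, 3 or 4 or 39-week replicates 1, 4 or 5, was 9 without 12-week replicate 2, and was 2 without 39-week replicates 3 and 5.

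T cell and natural killer cell genes were few in counts. Of 13 tested, 5 rose (38.5%, against 14.2% of all genes), none fell and all 13 had a positive log2 fold change, with a median of 1.26. Cd4, the co-receptor of helper T cells, stood at 1.7, 2.65, 1.04 and 1.53 CPM at 12 weeks and at 8.64, 3.87, 6, 8.49 and 4.82 CPM at 39 weeks (log2 fold change 1.88 ± 0.35, adjusted p = 0.00306). Cd8a, the co-receptor of cytotoxic T cells, stood at 0.0774, 0.189, 0.13 and 0.0637 CPM at 12 weeks and at 1.33, 0.31, 1.47, 0.404 and 0.504 CPM at 39 weeks (log2 fold change 2.75 ± 0.64, adjusted p = 0.00985). Cd3d, Cd3e and Klrk1, a receptor of natural killer cells, changed by 1.75, 1.48 and 2.14. For Cd4, Cd8a, Cd3d and Klrk1 no 12-week ovary reached the lowest ovary of 39 weeks. The count of rises was 3 without 39-week replicate 4 or 5. Genes of the antigen receptor constant regions were not analysed here.

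Among genes of antigen presentation Ciita, the master regulator of MHC class II genes, stood at 1.9, 4.64, 3.63 and 4.3 CPM at 12 weeks and at 7.04, 8.29, 11.1, 8.18 and 10.6 CPM at 39 weeks (log2 fold change 1.32 ± 0.27, adjusted p = 0.00534), and H2-Eb1 rose by 1.04, while H2-Ob, a modulator of peptide loading, fell (log2 fold change -1.55 ± 0.36, adjusted p = 0.00989), so 2 of 10 genes rose (20%, against 14.2% of all genes) and 1 fell (10%, against 14%). Of 12 complement genes 6 rose (50%, against 14.2%) and 1 fell (8.33%, against 14%). C2, a component of the classical pathway, stood at 31.1, 73.6, 60.2 and 85.6 CPM at 12 weeks and at 157, 208, 297, 136 and 256 CPM at 39 weeks (log2 fold change 1.75 ± 0.32, adjusted p = 0.00276). C1rl and C1s1 changed by 0.84 ± 0.12 (adjusted p = 0.000993) and 0.83 ± 0.19 (adjusted p = 0.00944), and the number that rose was 5 to 7 with 1 ovary left out at a time. Cfb, of the alternative pathway, fell (log2 fold change -1.17 ± 0.35, adjusted p = 0.0303), was oviduct-linked and lost its call in 5 of the 9 fits with 1 ovary left out.

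Of 20 interferon response genes 6 fell (30%, against 14% of all genes), with a median of -0.64. Oas1a (log2 fold change -2.02 ± 0.39, adjusted p = 0.00381) and Usp18 (log2 fold change -1.84 ± 0.34, adjusted p = 0.00335) were oviduct-linked, and Mx2 (log2 fold change -1.56 ± 0.34, adjusted p = 0.00711) was not. For 14 of 20 members the oviduct-poor 12-week ovary lay below all 5 Natural ovaries of 39 weeks, against 27.4% of all genes. It lay above them for none, and the number that fell was 3 without 12-week replicate 3 or 39-week replicate 5. Of 12 chemokine ligands 1 fell (8.33%, against 14% of all genes), Ccl11, which draws eosinophils (log2 fold change -1.42 ± 0.42, adjusted p = 0.0287). The call of Ccl11 was lost in 4 of the 9 fits with 1 ovary left out. Cpa3, a mast cell protease, was the 1 of 6 neutrophil and mast cell genes that rose (16.7%, against 14.2% of all genes), with a log2 fold change of 1.42 ± 0.46 (adjusted p = 0.0404). Its call was lost in 6 of the 9 fits with 1 ovary left out. Mzb1, of plasma cells, was the 1 of 6 B cell genes that fell (16.7%, against 14% of all genes), with a log2 fold change of -1.02 ± 0.29 (adjusted p = 0.0234), and was oviduct-linked.

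Few collagen genes, which encode the main fibres of the ovarian stroma, passed the test. Of the 17 tested, 1 rose and 1 fell (5.88% each, against 14.2% and 14% of all genes), with a median of 0.102. Col12a1 stood at 94.6, 80, 102 and 41.1 CPM at 12 weeks and at 157, 157, 114, 163 and 120.3 CPM at 39 weeks (log2 fold change 0.84 ± 0.24, adjusted p = 0.0248). Col5a3 stood at 20.9, 22.2, 22.2 and 38.1 CPM at 12 weeks and at 11, 10.3, 8.69, 17 and 7.39 CPM at 39 weeks (log2 fold change -1.25 ± 0.26, adjusted p = 0.00613). Among 20 genes of other matrix proteins and their enzymes 4 rose (20%, against 14.2% of all genes) and 3 fell (15%, against 14%), with a median of 0.107. Timp3, an inhibitor of metalloproteinases, rose in every 39-week ovary over every 12-week ovary (log2 fold change 0.91 ± 0.13, adjusted p = 0.00104), and Lum, a proteoglycan, rose (log2 fold change 0.74 ± 0.25, adjusted p = 0.0469), with its call lost in 7 of 9 fits with 1 ovary left out. Fn1 (log2 fold change -1.01 ± 0.28, adjusted p = 0.0226) and Postn (log2 fold change -1.50 ± 0.38, adjusted p = 0.0144), both matrix proteins of fibroblasts, fell. Both lost their calls with the oviduct score as a covariate, at -0.27 (adjusted p = 0.633) and -0.25 (adjusted p = 0.853). So did most genes in that fit, where 297 of the 2482 that fell kept their calls. The oviduct-poor 12-week ovary held 20.5 CPM of Postn, below every Natural ovary of 39 weeks, and 183 CPM of Fn1, within their range. IVF 39-week replicate 1 held 189 CPM of Postn and 557 CPM of Fn1. The highest levels in the other IVF ovaries of 39 weeks, 116 and 334 CPM, were also above every Natural ovary of that age. The part of the oviduct was not tested.

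Cdkn2a, which encodes the cell cycle inhibitor p16, stood at 5.07, 4.31, 0.714 and 1.08 CPM at 12 weeks and at 58.6, 15, 6.18, 14.3 and 12.1 CPM at 39 weeks (log2 fold change 2.94 ± 0.79, adjusted p = 0.0192). The ages did not overlap, with 6.18 CPM in 39-week replicate 3 and 5.07 CPM in 12-week replicate 1 as the closest pair, and 39-week replicate 1 lay far above the rest. It was the 1 of 14 senescence genes that rose, and Gdf15, a stress cytokine, was the 1 that fell (log2 fold change -1.60 ± 0.34, adjusted p = 0.00671). Each was 7.14% of the list, against 14.2% higher and 14% lower over all genes. The median of the list was -0.368.

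Many chaperone genes fell, 8 of 20 (40%, against 14% of all genes), with none higher and a median of -0.485. Hsp90aa1 stood at 642, 596, 808 and 428 CPM at 12 weeks and at 345, 389, 439, 267 and 371 CPM at 39 weeks (log2 fold change -0.77 ± 0.19, adjusted p = 0.0129). Hsp90b1, of the endoplasmic reticulum, Cryab, a small heat shock protein, and Hspa1b, the inducible Hsp70, changed by -0.75, -0.83 and -0.85. The number that fell was 4 without 12-week replicate 1 and 8 without 39-week replicates 3 and 5. The oviduct-poor 12-week ovary lay above all Natural 39-week ovaries for 3 of 20 members, against 24.4% of all genes, and held 409 CPM of Hsp90aa1. In the IVF ovaries 16 of 20 members had a positive change with age, with a median of 0.301. With the oviduct score as a covariate 0 were called lower in Natural, where 483 of all 19066 genes were. Of 18 immediate early genes 4 fell (22.2%, against 14% of all genes). Among them were Fos (log2 fold change -1.30 ± 0.20, adjusted p = 0.00116) and Atf3 (log2 fold change -0.73 ± 0.23, adjusted p = 0.0378). Ier3 (log2 fold change -2.79 ± 0.20, adjusted p = 4.91e-05), which also fell, was oviduct-linked.

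Red cell genes rose, 4 of 5 tested (80%, against 14.2% of all genes), with a median of 2.7. Their summed level was 87.02 to 278.2 CPM at 12 weeks and 178.5 to 2105 CPM at 39 weeks. Hbb-bs stood at 55.1, 171, 65.9 and 162 CPM at 12 weeks and at 298, 343, 1279.5, 118 and 1093 CPM at 39 weeks (log2 fold change 2.46 ± 0.70, adjusted p = 0.0248). Hbb-bt, with a sequence close to Hbb-bs, Alas2, which opens heme synthesis in red cells, and Slc4a1, the anion exchanger, changed by 2.98, 2.70 and 4.59. Replicates 3 and 5 of 39 weeks lay far above the other ovaries, and 1 member remained called without them. The count was also 1 without 12-week replicate 1 or 3 alone or without 39-week replicate 3 or 5 alone. The part of blood in the immune lists was not tested.

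Of 13 mitochondrially encoded genes 7 had enough counts to test. All 7 had positive changes, with 2 called (28.6%, against 14.2% of all genes) and a median of 0.865. ND5, a subunit of complex I, stood at 1539, 1929, 2186 and 2279.5 CPM at 12 weeks and at 4436, 3140.2, 5970.3, 3209 and 5541 CPM at 39 weeks (log2 fold change 1.17 ± 0.24, adjusted p = 0.00514), and ND2, another, changed by 1.21 ± 0.34 (adjusted p = 0.0256). The count of calls was 6 without 39-week replicate 2, 5 without 39-week replicate 4 and 1 without 12-week replicates 1, 2 or 3 or 39-week replicate 5. Nuclear copies of mitochondrial genes could share their reads. Oxidative phosphorylation genes of the nucleus, 74 in all, had a median of -0.0577, with 2 lower (2.7%, against 14% of all genes) and none higher. The 2 were Ndufc2 (log2 fold change -0.41 ± 0.10, adjusted p = 0.0131) and Ndufa11 (log2 fold change -0.46 ± 0.15, adjusted p = 0.0408). Of 78 cytosolic ribosomal protein genes, 72 had a negative log2 fold change, with a median of -0.182. Called lower were 3 (3.85%, against 14% of all genes), Rpl21, Rpl30 and Rps2, at -0.53, -0.48 and -0.57. In the IVF ovaries the median of that list was 0.30, and 75 were positive. With library size alone as the scaling, which shifts the median of all genes to -0.115, 28 ribosomal and 12 oxidative phosphorylation genes were called lower. With 1 ovary left out the ribosomal count was 0 to 10, the highest without 39-week replicate 3, and the oxidative phosphorylation count 1 to 9, the highest without 39-week replicate 1.

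Of 21 antioxidant genes 3 rose (14.3%, close to the 14.2% of all genes) and 2 fell (9.52%, against 14%). Hmox1, which breaks down heme, stood at 67.4, 69.4, 41 and 52.5 CPM at 12 weeks and at 147, 109, 141, 84.5 and 137 CPM at 39 weeks (log2 fold change 1.10 ± 0.20, adjusted p = 0.00284), with no overlap. Srxn1, a repair enzyme of peroxiredoxins, rose (log2 fold change 0.63 ± 0.15, adjusted p = 0.0108), and Gsr, glutathione reductase, fell (log2 fold change -0.62 ± 0.11, adjusted p = 0.00312). Of 25 DNA repair genes 1 rose, the damage kinase gene Atm (log2 fold change 0.61 ± 0.15, adjusted p = 0.0117), and 1 fell, the checkpoint kinase gene Chek2 (log2 fold change -0.75 ± 0.17, adjusted p = 0.00926). Each was 4% of the list, against 14.2% higher and 14% lower over all genes. Of 11 adipocyte genes 1 fell (9.09%, against 14% of all genes), Cidea, a lipid droplet protein that was oviduct-linked (log2 fold change -5.41 ± 0.67, adjusted p = 0.000458). Adipoq, the fat cell hormone, was at 8.32 to 179 CPM at 12 weeks and 1.68 to 132 CPM at 39 weeks, so this marker of fat differed as much within an age as between ages.

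Genes the study itself names from ovary RNA were chosen there on these libraries, and so their count is not independent evidence. Of 5 tested, 3 fell (60%, against 14% of all genes) and 1 rose (20%, against 14.2%). Slc2a1, a glucose transporter, stood at 67.6, 57.1, 74.9 and 52.5 CPM at 12 weeks and at 25.4, 29.6, 24.3, 28.9 and 21.9 CPM at 39 weeks (log2 fold change -1.28 ± 0.13, adjusted p = 0.000181). Esr1, estrogen receptor alpha, stood at 149, 193, 258 and 168 CPM at 12 weeks and at 102, 139, 100.2, 119 and 96.4 CPM at 39 weeks (log2 fold change -0.79 ± 0.17, adjusted p = 0.00623). Cdh13, T-cadherin, stood at 7.12, 8.33, 9.28 and 10.8 CPM at 12 weeks and at 3.32, 3.64, 6.61, 3.64 and 3.7 CPM at 39 weeks (log2 fold change -1.09 ± 0.24, adjusted p = 0.00727). For all 3 the ages did not overlap. IVF 39-week replicate 1, rich in oviduct RNA, held 87.9, 271 and 19.5 CPM, above every Natural ovary of 39 weeks. The highest levels in the other IVF ovaries of 39 weeks, 54.6, 140 and 15.4 CPM, were also above, narrowly so for Esr1. Star was the rise and Gdf9 did not pass (both above).

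The 10 largest rises without overlap held no oviduct-linked gene. Stxbp5l, a relative of tomosyn that binds SNARE proteins, stood at 2.13, 4.92, 0.714 and 2.93 CPM at 12 weeks and at 60.2, 21.2, 45.2, 24.8 and 50.6 CPM at 39 weeks (log2 fold change 3.93 ± 0.53, adjusted p = 0.000685). Mab21l2 stood at 1.08, 0.757, 0.843 and 0.987 CPM at 12 weeks and at 20.1, 4.18, 16, 6.16 and 14.6 CPM at 39 weeks (log2 fold change 3.72 ± 0.49, adjusted p = 0.000593). Acan, the proteoglycan aggrecan, stood at 1.39, 0.852, 0.973 and 2.2 CPM at 12 weeks and at 3.55, 15, 11.6, 10.2 and 9.07 CPM at 39 weeks (log2 fold change 2.86 ± 0.44, adjusted p = 0.00121). Pla2g2d, a secreted phospholipase of dendritic cells and macrophages, rose by 2.73. The others were Gm830 (3.37), 4931408D14Rik (3.09), 4930486L24Rik (2.57), Cdkn2a and Alas2 (above), and Naip1 (2.79). Naip1 and its near-identical relative Naip5 (-2.45) moved in opposite directions, and reads may be split between them. The levels of Naip1 were uneven within an age, at 0.324 to 2.08 CPM at 12 weeks and 2.79 to 16.5 CPM at 39 weeks.

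Falls outside the oviduct-linked genes, a set chosen after the data were seen, began with Gm41476 (-5.71), Aipl1 (-4.74), Arg1 (-4.27), Rxfp1 (-3.82) and Camk2b (-3.43). Arg1, arginase, stood at 10.8, 24.4, 14.4 and 8.82 CPM at 12 weeks and at 0.665, 0.465, 0.857, 0.775 and 0.98 CPM at 39 weeks (log2 fold change -4.27 ± 0.35, adjusted p = 8.06e-05). Rxfp1, the relaxin receptor, stood at 2.13, 5.68, 4.74 and 9.84 CPM at 12 weeks and at 0.332, 0.155, 0.122, 0.404 and 0.84 CPM at 39 weeks (log2 fold change -3.82 ± 0.58, adjusted p = 0.00113). The oviduct-poor 12-week ovary lay within the range of the Natural 39-week ovaries for Gm41476, Aipl1 and Camk2b, held 1.79 CPM of Arg1 and was at 0 for Rxfp1. IVF 39-week replicate 1 held 9.28 CPM of Arg1 and 3.72 CPM of Rxfp1. The other IVF ovaries of 39 weeks, with little Ovgp1, held up to 8.88 and 1.96 CPM, also above every Natural ovary of 39 weeks. Slc16a11, a monocarboxylate transporter, fell (log2 fold change -2.80 ± 0.42, adjusted p = 0.00109) from 6.48 to 33.8 CPM at 12 weeks to 1.41 to 3.37 CPM at 39 weeks, and the oviduct-poor 12-week ovary held 20.1 CPM of it. Tnnt2, Slc6a4, Hoxa9 and Thrsp, a regulator of fat synthesis, fell, with log2 fold changes of -2.82, -2.58, -2.87 and -2.71.

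The 5 called genes with the most reads that rose were ND2, ND5, Star, Hsd3b1 and Aplp2, an amyloid precursor relative (log2 fold change 0.81 ± 0.25, adjusted p = 0.0373). Those that fell were Ovgp1, Hsp90b1, Tmsb4x, an actin-binding peptide (log2 fold change -1.08 ± 0.22, adjusted p = 0.00497), Pdia3, a protein disulfide isomerase (log2 fold change -0.49 ± 0.14, adjusted p = 0.0286), and Hnrnpa2b1, an RNA-binding protein (log2 fold change -0.49 ± 0.12, adjusted p = 0.0131). The calls of Aplp2 and Pdia3 were each lost in 6 of the 9 fits with 1 ovary left out. Within an age the SD of log2 CPM had a median of 0.182 at 12 weeks and 0.197 at 39 weeks. The genes with the highest SD at 12 weeks were Bhmt (SD 4.26, 0.0946 to 219 CPM), LOC108168162 (SD 4.25, 0.0473 to 46.5 CPM) and Cyp17a1 (SD 3.94, 0.805 to 442 CPM), all highest in replicate 4. At 39 weeks they were Kcnj16 (SD 4.61, 0.0775 to 77.7 CPM) and A2m (SD 4.09, 0.0775 to 60 CPM), both highest in replicate 5.

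Each change was also read in 10 IVF ovaries, 5 at each age, of a like design. Of the genes that rose in Natural, 81.5% had the same sign in IVF and 447 were called there too, where 779 of 19066 rose (4.09%). Of the genes outside the oviduct-linked set that fell in Natural, 68.8% had the same sign and 121 were called, where 430 fell (2.26%). Of the oviduct-linked genes that fell, 40.6% had the same sign and 0 were called by edgeR at an adjusted p under 0.05. The rule that marks these genes uses the IVF 39-week levels, so this share, the absence of calls and the 68.8% above were partly set by it. Over all genes tested 53.6% were positive in IVF. The oviduct-poor 12-week ovary lay below all Natural 39-week ovaries for 67.6% of the genes that rose, against 27.4% of all genes. It lay above them for 57.7% of the falls outside the linked set, against 24.4%. The genes were called on these same 39-week ovaries, so both shares were partly set by that choice. The ovary is also among the IVF ovaries behind the same-sign shares, so it adds no separate evidence.

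Tested directly, the change with age differed between IVF and Natural for 3 of 19066 genes (0.0157%), with 3839 at an unadjusted p under 0.05 and 1128 called by DESeq2. Optn, an autophagy receptor, rose by 1.29 in Natural and changed by 0.0105 in IVF, a difference of -1.28 ± 0.17 (adjusted p = 0.0154). Optn in Natural stood at 14.4, 14.9, 12.5 and 15.3 CPM at 12 weeks and at 33.7, 38.4, 34.2, 35.2 and 35 CPM at 39 weeks. Ppp1r14b, a phosphatase inhibitor, changed by -0.385 in Natural and 0.529 in IVF (difference 0.91 ± 0.14, adjusted p = 0.0294). Ybx3, a cold shock domain protein, changed by -0.224 and 0.419 (difference 0.64 ± 0.0995, adjusted p = 0.0294).

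**Figure D5:**
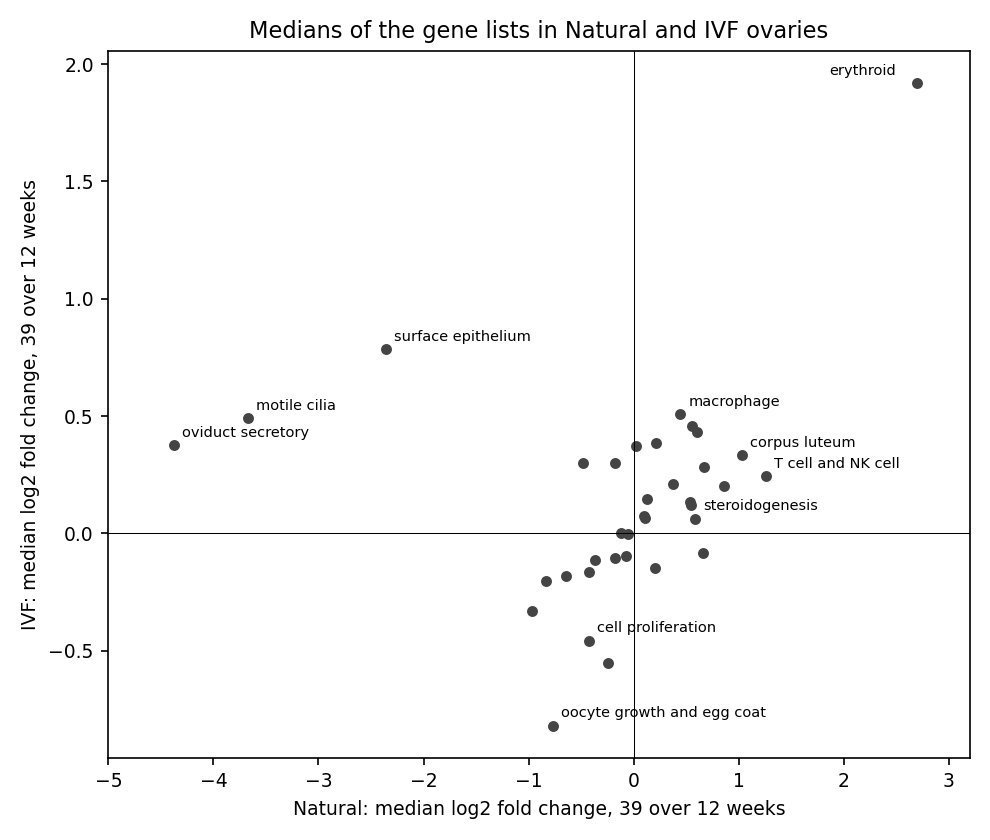
Median log2 fold change from 12 to 39 weeks of each gene list in the IVF ovaries (vertical axis) against that in the Natural ovaries (horizontal axis), 1 point per list. The erythroid list is high in both (2.7 and 1.92) and the oocyte growth list low in both (-0.772 and -0.82), while the oviduct secretory, motile cilia and surface epithelium lists are low in Natural and positive in IVF.

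The oviduct score as a covariate was an alternative chosen after seeing the data. With it, 597 of 19066 genes were higher and 483 lower in Natural at 39 weeks. These held 521 of the genes that rose and 297 of those that fell, 263 of the latter outside the linked set and 34 within it. Oocyte genes numbered 9 lower and proliferation genes 7 lower, with Zp3 at -1.71 (adjusted p = 0.0244) and Ube2c at -1.58 (adjusted p = 0.0151). The clock list had 7 higher and 1 lower, with Dbp at 1.84 (adjusted p = 0.0282), and the endothelial list 3 higher, with Eng at 0.97 (adjusted p = 0.00652). Cd4, Cd8a, Pdgfra, Pgr, Tnfaip6 and Cdkn2a remained called, at 1.66, 2.78, 1.42, -1.88, -2.17 and 3.59. Star was at 1.02 (adjusted p = 0.36), Hsd3b1 at 0.35 (adjusted p = 0.55), Prlr at 0.74 (adjusted p = 0.399), C2 at 0.90 (adjusted p = 0.203), Slc2a1 at -0.71 (adjusted p = 0.079), Esr1 at 0.22 (adjusted p = 0.615) and Cdh13 at -0.52 (adjusted p = 0.545). None of these 7 was called with the covariate. Nor was any gene of the interferon, complement, chaperone, corpus luteum, erythroid, matrix, surface epithelium or mitochondrially encoded lists. With 597 and 483 of 19066 genes called in all, the absence of calls in such short lists tells little about them. The macrophage list had 1 higher, and in the Natural ovaries the score itself follows age.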

How the data were processed

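Polyadenylated RNA of whole ovary pieces was sequenced on stranded libraries, and the authors deposited 1 table of gene counts for each age, with 1 column per library. The processing notes name Trimmomatic 0.32, STAR 2.3.0e, featureCounts 1.5.0, DESeq2 and the build mm10, without saying which step each took for these tables, and whether the counting used strand is not given in the sources used here. The Natural columns of 12 and 39 weeks (4 and 5 ovaries, each of its own female) were joined by gene name, and 27 names that had turned into numbers stayed out. The design text of the series gives 5 Natural ovaries at 12 weeks and 4 at 39 weeks. The labels and columns, which give 4 and 5, were followed. The study's methods give separate individuals and different litters, though its adult cohorts could include littermates. The labels name neither female nor litter, and p-values measure the spread between these ovaries. No pair of libraries held the same counts.

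Counts were fitted as deposited with edgeR 4.0.16 in R 4.3.3 (filterByExpr, TMM, quasi-likelihood F test, Benjamini-Hochberg adjustment, threshold 0.05), and the fit was tested on simulated data. The IVF ages and the difference between IVF and Natural came from 1 fit of all 19 adult ovaries, and IVF levels use its scaling, which moves a Natural CPM by at most 3.17%. Alternatives used DESeq2 1.42.0 and other scalings, filters and sets of ovaries. The method of counting could split the reads of near-identical genes.

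The members and the 37 gene lists were chosen with earlier results of these data known. Named were, per list, up to 3 called members with the largest change, or the first member where fewer than 2 were called; the 10 largest rises and falls without overlap at a mean of at least 5 CPM; the 5 called genes with the most reads in each direction; the genes the study names from ovary RNA; and genes with the largest SD within an age. All others (such as further clock, endothelial and luteal genes, Optn, Ppp1r14b and Ybx3, Hsd17b7, Lhcgr and Kcnj16, and the falls outside the oviduct-linked set) were chosen after their values were seen. The oviduct rule, the covariate and the fit without 39-week replicates 3 and 5 were too. A withheld item is not reported here.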

Additional observations from a re-analysis of the deposited data

Results flagged for a closer look

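A single ovary stood far from the rest of its age, by Dixon's test at 95%, in 39 of 334 groups tested over the genes named here (11.7%, where chance gives about 5%, or 1 in 20). No explanation was tested.

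Several were in 39-week replicate 1, where oviduct transcripts were above those of the other 4 ovaries. It held 114 CPM of Ovgp1, 30.4 of Foxj1, 8.75 of BC048546, 2.33 of Wfdc18, 0.997 of Dcpp2, 0.776 of Dcpp1, 0.942 of Edn2, 0.886 of Cidea, 0.222 of Wfdc15b, and 0.111 of each of Gm35761, Gpx2 and Lrrc26. The same ovary held 58.6 CPM of Cdkn2a, 102 CPM of 4930486L24Rik, 47.6 CPM of 4931408D14Rik, 129 CPM of Srxn1, 937 CPM of Tmsb4x and 49.6 CPM of Ndufa11, each the highest of its age.

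In the other 39-week ovaries, replicate 2 held 132 CPM of Adipoq and 101 CPM of Kitl. Replicate 3 held 6.61 CPM of Cdh13 and 127 CPM of Ybx3. Replicate 4 held 1.41 CPM of Camk2b and 0.337 CPM of Gm41476. Replicate 5 held 3.25 CPM of Ddx4 and 103 CPM of Per3, the highest, and 3.61 CPM of Itgax, the lowest of its age.

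At 12 weeks replicate 4 stood apart with 442 CPM of the androgen-forming enzyme Cyp17a1, 6.53 CPM of Insl3, 38.1 CPM of Col5a3, 22.4 CPM of Tek, 118 CPM of Thrsp and 4.9 CPM of 4931408D14Rik. Replicate 1 held 13.5 CPM of Edn2 and 0.387 CPM of Cd3d, replicate 2 held 10.8 CPM of Adgre1 and 346 CPM of Lum, and replicate 3 held 4.93 CPM of Mzb1 and 50.9 CPM of Stard4.

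The change with age differed between IVF and Natural ovaries by a test of the difference itself (edgeR) for Optn, by -1.28 on the log2 scale, Ppp1r14b, by 0.914, and Ybx3, by 0.643. DESeq2 called 1128 genes for the same difference.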

How the results depend on the processing

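With DESeq2, size factors, no filter, a filter of 10 counts or all 19 ovaries in 1 fit, both counts of genes called in Natural stayed within 1.5 times the 2508 higher and 2482 lower. They were 1635 higher with DESeq2 and a 1.5-fold minimum, 308 and 1212 with edgeR's test against 1.5-fold, 1430 higher and 3310 lower (30.2% higher among calls, against 50.3%) with library size alone, which moves the median of all genes to -0.115, 597 and 483 with the oviduct covariate, 1460 lower without the oviduct-linked genes (fewer genes tested) and 1554 higher without 39-week replicates 3 and 5. With 1 ovary left out they were 1645 to 2392 higher and 1969 to 2399 lower. The replicate numbers do not pair the ovaries (correlations of same-numbered deviations 0.0588, 0.0862, -0.17 and -0.112), and with the replicate number as a block 1349 were higher and 1656 lower, 1305 and 1602 of them called without it.

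The difference between IVF and Natural (3 genes) was called for 1128 genes by DESeq2, 10 with size factors, 57 with at least 10 counts and 0 to 57 with 1 ovary left out (edgeR; 3839 at an unadjusted p under 0.05 with all ovaries). It was 0 without IVF 39-week replicate 2 or Natural 12-week replicate 1 or 39-week replicates 1 or 2, and 57 without IVF 12-week replicate 4. List medians were not recomputed under other scalings; those of the collagen (0.102), matrix (0.107), antioxidant (0.125) and chemokine (0.0244) lists are smaller than the shift that library size alone brings.

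The log2 fold change turned sign without 12-week replicate 4 for Cyp17a1 (-2.571 to 3.588 with 1 ovary left out), Bmp15 (-0.2756 to 0.02592) and Insl3 (-2.282 to 0.03515), with the block for Cyp17a1 (0.01659), and with the covariate for Foxj1 (0.6638), Esr1 (0.2238), Foxl2 (-0.4011), Mzb1 (0.4647), Nr5a1 (-0.04503), Sox17 (0.1331) and Usp18 (0.3901). Without 39-week replicates 3 and 5 it turned for Hsd17b7 (-1.035, adjusted p = 0.0408), Lhcgr (-0.2008) and Kcnj16 (-2.487). The causes were not tested. Depth limits the T cell genes and other genes of a few counts, and 4 or 5 ovaries limit every test.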
